A study of Mus musculus with 24 samples.

Results

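The 4 genes described here, Zg16, Tff3, Retnlb and Muc3, encode secreted products of goblet cells and a mucin, and were measured along the gut of conventional and germ-free mice. They were taken as every probe set that the array's annotation assigns to 1 of these symbols, which gave 4 probe sets, 1 for each gene, of 12488 on the array. The annotation names 8252 genes in all, and all 4 probe sets passed the filter on low signals. Total RNA of whole dissected tissue was hybridised to 24 one-colour arrays, 1 library each. There were 3 libraries from each of 4 regions in each microbial state. The regions were the corpus (the stomach without its antrum), jejunum, descending colon and rectum, the last being the final stretch of the digestive tube. Conventional mice carry an ordinary microbiota, and germ-free mice are raised without microbes. The labels used here give no strain, age or sex and do not say which libraries share a mouse, so the p-values below measure only the spread between libraries.

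Goblet cells are the mucus-secreting cells of the intestinal epithelium, and the glandular part of the stomach corpus is lined instead by its own surface mucous cells. Zg16 is a lectin that binds bacterial cell walls, Tff3 is the intestinal trefoil peptide known for its part in mucosal repair, and Retnlb (resistin-like beta) is a small cysteine-rich protein secreted into the lumen. Muc3 is a membrane-anchored mucin of the intestinal surface, carried largely by enterocytes rather than secreted from goblet granules. Because whole tissue was measured, fewer goblet cells and less RNA per cell cannot be told apart.

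A RefSeq promoter sequence (build GRCm38.p6) was at hand for Muc3, 1 of the 4 genes. It is shown because Muc3 and the 3 secreted products were low in the corpus and high in the intestine together. The window is chr5:137165997-137166296 on the minus strand, from 250 bases before to 50 bases after the gene's start, written 5′ to 3′. Capitals mark the matches to TTTAT, the core of sites of the intestinal factor Cdx2, or to its reverse complement.
Muc3 promoter: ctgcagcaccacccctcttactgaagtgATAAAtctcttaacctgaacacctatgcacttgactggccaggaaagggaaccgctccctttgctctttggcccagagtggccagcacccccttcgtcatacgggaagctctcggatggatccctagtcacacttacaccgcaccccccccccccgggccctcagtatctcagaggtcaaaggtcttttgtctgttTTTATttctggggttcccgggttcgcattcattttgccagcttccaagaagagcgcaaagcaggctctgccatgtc
On both strands the window held 2 matches to TTTAT, which 40% of the 32851 promoters in the table also hold. It held 3 matches to GGGTG, a Klf4 core present in 57.5% of promoters. TATAAA (13.6% of promoters; TTTAT on the other strand lies within it), CAGCTG (16.3%), an NF-kB motif of GGGA and CC 4 bases apart (20.7%) and a Stat6 motif of TTC and GAA 4 bases apart (6.95%) were not found in these letters. With such shares, the matches describe the sequence only.

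Of the 24 libraries, 3 went against their region label by marker genes fixed for each region. The library labelled germ-free corpus 3 had a summed gastric gland signal of 1211, where the other 5 corpus libraries had 36112 to 91936. It was the closest over the probe sets tested to the library labelled germ-free descending colon 3 (SD of log2 differences 0.25, against 0.36 to 1.23 for pairs of the same group). The library labelled conventional jejunum 3 had a hindgut sum of 9702 (1262 at most in the other jejunum libraries) and Apoa4, an enterocyte apolipoprotein, at 13.8. The library labelled conventional rectum 1 had Apoa4 at 2766, where the other rectum libraries had 58.1 at most. All groups were kept as labelled, and tests of the 4 genes whose call changed without these 3 libraries are also given in the 21 that remained.

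Zg16 was near or under the floor of 21.2 (the 25th percentile of all values, to which lower values were raised) in the conventional corpus, with signals of 11.6, 5.4 and 26.6. In the germ-free corpus its signals were 105, 311 and 8395, the last in the library that resembled descending colon. All 3 germ-free libraries lay above all 3 conventional ones, as in 8.21% of probe sets tested. In the jejunum its signals were 6935, 10755 and 7768 in conventional mice and 10501, 7774 and 10071 in germ-free mice. Descending colon signals were 9136, 6025 and 7000 in conventional and 6559, 7143 and 8342 in germ-free mice. In the rectum they were 6968, 6181 and 7593 in conventional and 7462, 8245 and 10566 in germ-free mice. In each of these 3 regions the 2 states overlapped, and the 18 libraries outside the corpus spanned 1.79-fold. Zg16 is also known as a pancreatic zymogen granule protein, and the library labelled conventional jejunum 3 had the highest summed pancreatic acinar signal, 42394. Its Zg16 signal lay between those of the other 2 libraries of its group, but that library also carried hindgut markers. The part of pancreatic tissue in the Zg16 values was not tested.

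Tff3 was likewise low in the corpus and high in the other regions. Its signals in the corpus were 73.8, 74.0 and 29.7 in conventional mice and 125, 470 and 8025 in germ-free mice. In the jejunum they were 7451, 13165 and 7892 in conventional and 10390, 9303 and 11002 in germ-free mice. The corpus states did not overlap, while the jejunum states did. In the descending colon the signals were 9925, 6291 and 10681 in conventional and 6305, 8010 and 8003 in germ-free mice. In the rectum they were 7694, 7215 and 7605 in conventional and 7345, 10239 and 11145 in germ-free mice. Outside the corpus the 18 libraries spanned 2.09-fold, again with the states overlapping in each region.

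Retnlb was under the floor in all 3 conventional corpus libraries, at 8.4, 11.1 and 8.9. Its germ-free corpus signals were 7.0, 281 and 9364, from under the floor to an intestinal level. In the jejunum Retnlb read 4723, 4799 and 8076 in conventional mice and 1459, 2265 and 1856 in germ-free mice. Every germ-free jejunum library was below every conventional one and below every other library outside the corpus. In the descending colon the order was the opposite, with 8444, 7975 and 6041 in conventional and 10542, 10141 and 9307 in germ-free mice. In the rectum the states overlapped, at 4421, 6924 and 9614 in conventional and 8654, 6712 and 17462 in germ-free mice. The 18 libraries outside the corpus spanned 12.0-fold, and 3.95-fold over the 15 that were not germ-free jejunum.

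Muc3 was under the floor in the conventional corpus, at 3.2, 3.1 and 3.7. Its germ-free corpus signals were 7.0, 167 and 6355, ordered over the libraries as those of Retnlb were. In the jejunum they were 3300, 4413 and 6353 in conventional and 5081, 4147 and 4818 in germ-free mice. The states overlapped there. Descending colon signals were 7816, 5091 and 7242 in conventional and 6033, 6220 and 6367 in germ-free mice. In the rectum they were 3783, 5775 and 6916 in conventional and 6075, 8246 and 7488 in germ-free mice. Both regions showed overlap between the states, and Muc3 spanned 2.50-fold outside the corpus.

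**Figure D1:**
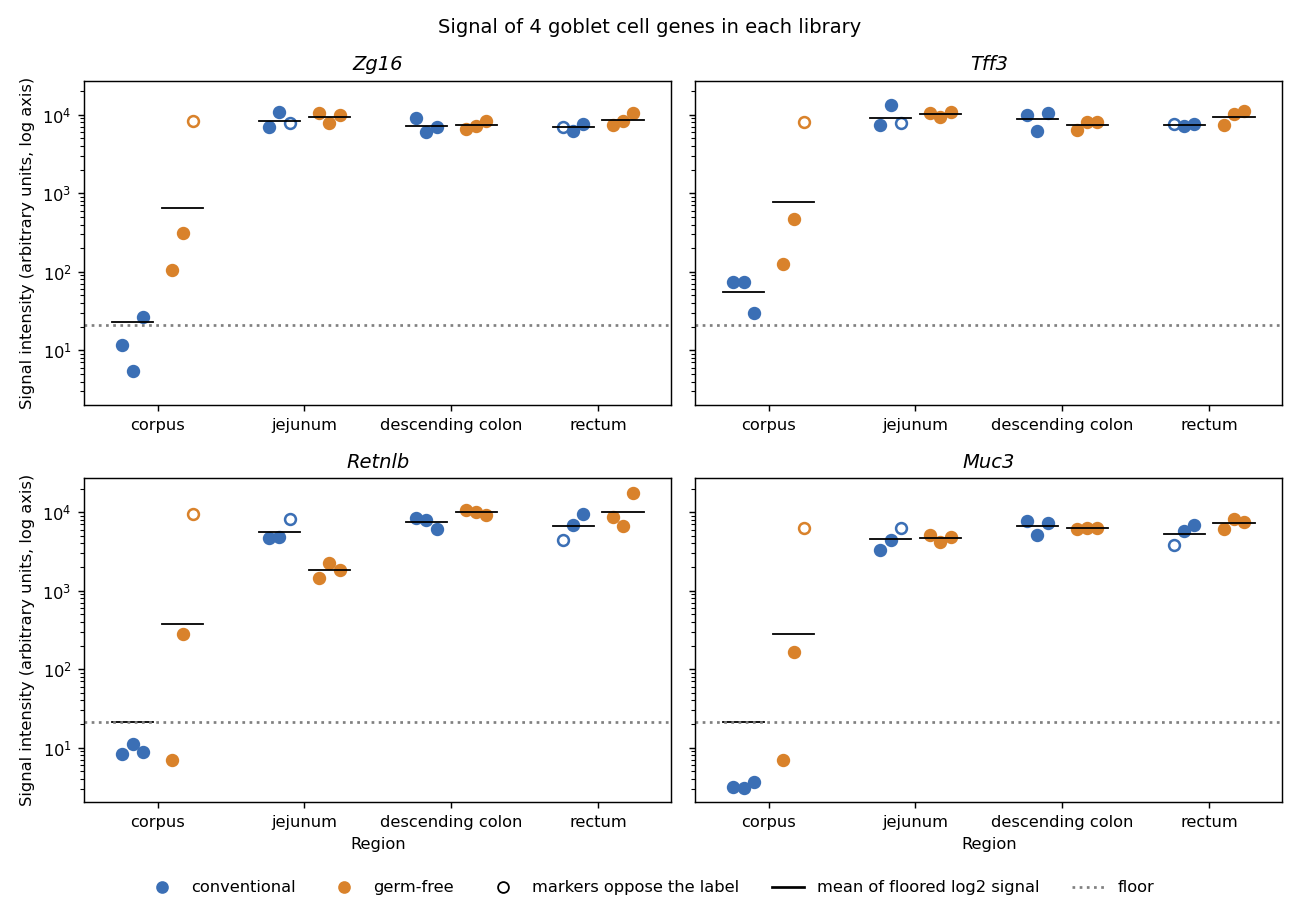
Signal of Zg16, Tff3, Retnlb and Muc3 in each of the 24 libraries (arbitrary units, log axis) by region and microbial state; points are libraries, open points are the 3 whose markers opposed their label, bars are means of the floored log2 signal and the dotted line is the floor of 21.2. All 4 genes were low in the conventional corpus, and the germ-free jejunum libraries of Retnlb, from 1459 to 2265, lay below all others outside the corpus.

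Put in order by mean log2 signal, the conventional corpus was lowest and the germ-free corpus next for all 4 genes. For Retnlb the order then ran from the germ-free jejunum (10.84 ± 0.32, SD, n = 3) to the conventional jejunum (12.47 ± 0.44), conventional rectum (12.70 ± 0.56), conventional descending colon (12.86 ± 0.26), germ-free descending colon (13.29 ± 0.09) and germ-free rectum (13.29 ± 0.71). Of these neighbours, the 2 jejunum groups did not overlap, nor did the 2 descending colon groups. The other neighbours from the germ-free jejunum upwards overlapped.

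The difference between intestine and stomach was by far the widest in these genes. In conventional mice the jejunum exceeded the corpus at least 365-fold for Zg16, 168-fold for Tff3, at least 268-fold for Retnlb and at least 213-fold for Muc3, "at least" meaning that corpus values under the floor had been raised to it (2 of 3 for Zg16, all 3 for Retnlb and Muc3). These 4 values are a description without a test, since the genes had been singled out by this difference in earlier work on these libraries. The descending colon also exceeded the corpus in conventional mice, at least 318-fold for Zg16 (log2 difference 8.31 ± 0.87, SE, limma adjusted p = 3.13e-05) and 160-fold for Tff3 (adjusted p = 5.75e-05). Retnlb was at least 350-fold higher there and Muc3 at least 312-fold (limma adjusted p = 0.000138 for each). This comparison shares its corpus libraries with the previous one, by which the genes had been singled out, so its calls are no independent support. All 4 genes passed, where 12.9% of the 9033 probe sets tested did. The corpus libraries also carried squamous epithelium genes. Their summed signal (10 genes) was 49994 to 58748 in the conventional corpus, 574 to 685 in the conventional jejunum and 453 to 715 in the conventional descending colon. The part of squamous tissue in these comparisons was not tested.

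In germ-free mice the same steps had smaller fitted values, and the 3 germ-free corpus libraries differed widely. Between jejunum and corpus, Zg16 rose by 3.85 ± 0.87 on the log2 scale (limma adjusted p = 0.00449), Tff3 by 3.71 ± 0.84 (adjusted p = 0.00461) and Muc3 by 4.05 ± 1.10 (adjusted p = 0.0129). Retnlb, with a difference of 2.26 ± 1.18, did not pass (adjusted p = 0.185). Thus 3 of the 4 passed, beside 21.8% of all probe sets. In the 21 libraries all 4 passed, with log2 differences of 5.69, 5.39, 4.57 and 6.29 for Zg16, Tff3, Retnlb and Muc3, beside 29.1%. A fit of the 2 groups alone called none of the 4, beside 422 probe sets in all. Muc3 also lost its call without germ-free corpus 1 (adjusted p = 0.084) or without germ-free corpus 2 (adjusted p = 0.0584).

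Between descending colon and corpus of germ-free mice the log2 differences were 3.49 for Zg16, 3.25 for Tff3, 4.71 for Retnlb and 4.46 for Muc3. None passed in limma (adjusted p from 0.0586 to 0.0613), nor did any probe set on the array (0%), although 1315 had an unadjusted p under 0.05. In the 21 libraries the differences were 5.34, 4.93, 7.02 and 6.70, and all 4 passed, beside 17.7%. Leaving out germ-free corpus 3 alone also gave 4 calls, beside 1379 of the 9033 probe sets. With all libraries and state and number as a replicate block, all 4 passed at unchanged differences (limma adjusted p 0.037 to 0.0394), beside 234 probe sets.

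Within the intestine, Zg16, Tff3 and Muc3 showed no difference between descending colon and jejunum that passed the test. In conventional mice the log2 differences were -0.20 for Zg16, -0.07 for Tff3, 0.38 for Retnlb and 0.55 for Muc3 (limma adjusted p from 0.923 to 0.996). No probe set passed there with all libraries (0%), while 989 had an unadjusted p under 0.05. None of the 4 genes passed in the 21 libraries either, where 11.5% of probe sets did. In germ-free mice Retnlb was 5.45-fold higher in the descending colon than in the jejunum, with no overlap, a property of 30% of probe sets. Its log2 difference of 2.45 ± 1.18 did not pass with all libraries (limma adjusted p = 0.183, beside 11.8% of probe sets called). It passed in the 21 libraries at the same difference with an SE of 0.56 (adjusted p = 0.00431, beside 19.4%) and in a fit of the 2 groups alone (adjusted p = 0.00128, beside 725 probe sets in all). None of the libraries left out belongs to these 2 groups, so the difference itself did not change. For Zg16, Tff3 and Muc3 the germ-free differences were -0.36, -0.47 and 0.41 (adjusted p from 0.767 to 0.854). Tff3, lower in the colon, and Muc3, higher there, also did not overlap between these regions, while Zg16 did. Between rectum and descending colon the 4 genes differed by at most 0.35 on the log2 scale in either state, all with an adjusted p of 1, beside 0.0111% of probe sets called in each state.

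The comparison of germ-free with conventional mice asks what the microbiota changes in each region. In the corpus all 4 genes had higher means in germ-free mice, by 4.83 for Zg16, 3.84 for Tff3, 4.17 for Retnlb and 3.74 for Muc3 on the log2 scale, and none passed (limma adjusted p 0.0807, 0.0807, 0.319 and 0.334). No probe set passed in this region (0%), and 817 had an unadjusted p under 0.05. In the 21 libraries Zg16 was at least 7.92-fold higher in the germ-free corpus (2.98 ± 0.32, adjusted p = 0.000218), beside 0.0664% of probe sets. Tff3 (2.15, adjusted p = 0.0797), Retnlb (1.86, adjusted p = 0.521) and Muc3 (1.49, adjusted p = 0.486) did not pass. Zg16 and Tff3 had already been named for this region in earlier work, so these values are no independent support.

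The germ-free corpus libraries that were left also differed in markers of other regions. Germ-free corpus 2 had a hindgut marker sum of 1812, with Car1, a carbonic anhydrase of the large intestine, at 1432. Germ-free corpus 1 had a sum of 188, within the 184 to 221 of the conventional corpus, and Car1 at 15.7. Retnlb and Muc3 were both at 7.0 in germ-free corpus 1, under the floor, while Zg16 and Tff3 were 105 and 125 there. Zg16 and Tff3 were thus above the conventional range in the germ-free library without raised hindgut markers, and Retnlb and Muc3 were not. The part of intestinal tissue in these values was not tested. Without germ-free corpus 1 all 4 genes passed, beside 159 of the 9033 probe sets. There was 1 call without germ-free corpus 2, beside 12 probe sets, and 1 without germ-free corpus 3, beside 4, so the number of calls rests on single libraries.

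In the jejunum, Retnlb was 3.10-fold lower in germ-free than in conventional mice (log2 difference -1.63 ± 1.18), which did not pass (limma unadjusted p = 0.181, adjusted p = 0.601). The absence of overlap between its groups was shared by 15.6% of all probe sets, and 8.59% were lower in this way. The SE comes from a spread common to the 8 groups, among them the germ-free corpus, where Retnlb ran from 7.0 to 9364. In the 21 libraries Retnlb was 2.60-fold lower (-1.38 ± 0.63, unadjusted p = 0.0408, adjusted p = 0.38), and over every alternative run the adjusted p stayed between 0.185 and 0.86. Zg16, Tff3 and Muc3 differed by 0.17, 0.15 and 0.04 between the states, and none of the 4 was among the 0.465% of probe sets called.

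Other cell markers moved with microbial state in the jejunum. The summed signal of 6 of 8 listed B and plasma cell genes was 13161 to 19684 in conventional and 3190 to 6901 in germ-free libraries. That of 8 of 16 listed gastric gland genes was 663 to 1903 in conventional and 2873 to 10440 in germ-free libraries. The gastric gland list holds the trefoil genes Tff1 and Tff2. Together with Retn, these trefoil genes alone summed to 440 to 1714 in conventional and 2547 to 7299 in germ-free libraries. For 14 of 17 listed goblet and secretory lineage factors the sum was 5545 to 8103 in conventional and 4745 to 5191 in germ-free libraries. The 8103 was that of the library labelled conventional jejunum 3, and the other conventional libraries had 5545 and 5874. The sum of 16 other mucus and goblet cell genes overlapped, at 45524 to 58756 and 45224 to 49974. The sum of 5 of 11 Paneth cell genes was 3062 to 29176 in conventional and 12639 to 18896 in germ-free libraries. That of the 8 T helper 2 and mast cell genes was 602 to 1231 and 698 to 1004. Both lists overlapped only through the library labelled conventional jejunum 3. Without it the Paneth sums of conventional mice were 20198 and 29176 and the T helper 2 and mast cell sums 1193 and 1231, above all germ-free values. The part of these cells in the Retnlb values was not tested.

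In the descending colon, Retnlb was 1.35-fold higher in germ-free mice (0.43 ± 1.18, limma adjusted p = 0.967), without overlap, as were 8.4% of probe sets. Zg16, Tff3 and Muc3 differed by 0.01, -0.24 and -0.09, and none passed, beside 0.0111% of probe sets. With the 21 libraries none of the 4 passed there either, beside 0.0886%. In the rectum the 4 genes differed by 0.33, 0.33, 0.60 and 0.44, with overlap in each (adjusted p 0.985 to 0.986, beside 0.0111%). In the 21 libraries these were 0.34, 0.35, 0.30 and 0.19, and none passed, beside 0.0111%. The summed gastric gland signal was 1061 to 17181 (median 2662.5) in the germ-free and 545 to 888 (median 615.5) in the conventional rectum. Tff1 and Tff2 are in that list, and together with Retn they alone summed to 738 to 9361 and 432 to 708. The part of gastric tissue in these values was not tested. Averaged over the 4 regions the differences were 1.33 for Zg16, 1.02 for Tff3, 0.89 for Retnlb and 1.03 for Muc3 (adjusted p 0.12, 0.212, 0.442 and 0.332, beside 1.68%). Zg16 passed that average in the 21 libraries (0.86, adjusted p = 0.0113, beside 1.46%), and without germ-free corpus 1 alone 3 of the 4 did, beside 238 of the 9033 probe sets. In the 21 libraries Zg16 differed by 2.98 in the corpus, 0.12 in the jejunum, 0.01 in the descending colon and 0.34 in the rectum. Its average thus rests mainly on the corpus difference and is no independent support.

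The germ-free effect on Retnlb thus had opposite signs in jejunum and descending colon. The difference between these effects was -2.06 ± 1.66 on the log2 scale and did not pass (limma adjusted p = 0.813), nor did it in the 21 libraries (-1.81 ± 0.84, adjusted p = 0.534). The F test of whether the effect differed over all 4 regions gave adjusted p values of 0.796 for Zg16, 0.89 for Tff3, 0.898 for Retnlb and 0.922 for Muc3, beside 0.0221% of probe sets called. Zg16 passed that test in the 21 libraries (adjusted p = 0.0118, beside 0.0775%). The F test includes the corpus effect, for which Zg16 had already been named in earlier work, so this pass is no independent support. Without germ-free corpus 1 there were 3 calls, beside 8 of the 9033 probe sets.

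**Figure D2:**
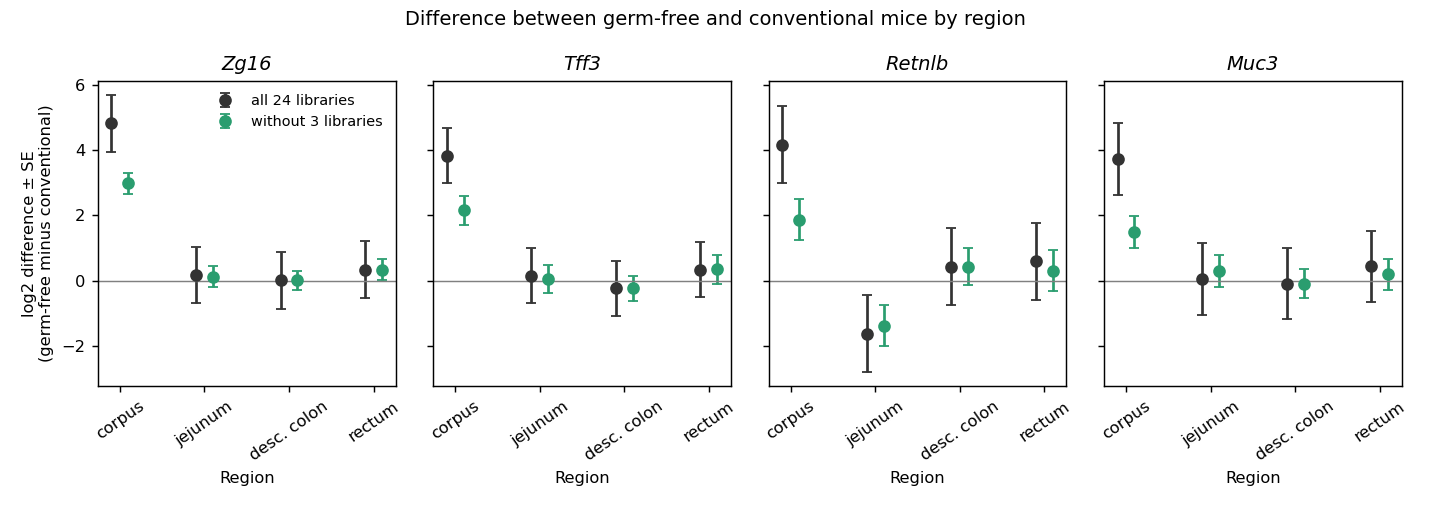
Germ-free minus conventional difference (log2, ± SE) of each gene by region, with all 24 libraries and without the 3 whose markers opposed their label. The corpus differences are positive and shrink without those libraries, from 4.83 to 2.98 for Zg16, and the single negative jejunum value is that of Retnlb, -1.63.

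Zg16 and Tff3 can serve within each library as a measure of goblet cell products, against which Retnlb and Muc3 can be set. This was done after the values had been seen, and is a description. In the jejunum, Retnlb relative to the mean log2 signal of Zg16 and Tff3 was 1.79 lower in germ-free mice, a 3.47-fold difference, and 1.46 lower without the library labelled conventional jejunum 3. The groups did not overlap. In the descending colon the same measure was 0.55 higher in germ-free mice, with overlap. The rectum difference was 0.26 with all libraries and -0.04 in the 21, so its sign was not stable. Relative Muc3 differed by -0.12 in the jejunum, 0.03 in the descending colon and 0.11 in the rectum. In the 21 libraries its sign turned in the jejunum (0.21) and in the rectum (-0.15).

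**Figure D3:**
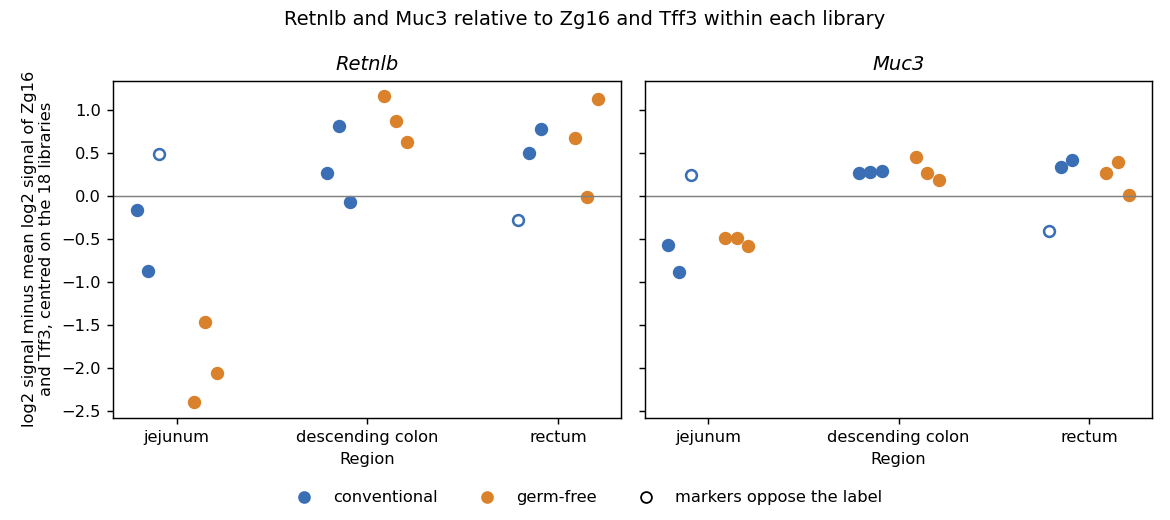
Log2 signal of Retnlb and of Muc3 minus the mean log2 signal of Zg16 and Tff3 in the 18 libraries outside the corpus, centred on their mean, by region and microbial state; open points are libraries whose markers opposed their label. Relative Retnlb was lowest in the 3 germ-free jejunum libraries, and the mean difference of relative Muc3 in the jejunum was -0.12 with all libraries and 0.21 in the 21.

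The genes whose pattern over the 24 libraries was most like that of a member were picked by Pearson correlation of log2 signals. For Zg16 these were Tff3 (r = 0.992), Fcgbp (0.988), an abundant protein of the mucus gel, and Muc3 (0.984). For Tff3 they were Zg16 (0.992) and the tight junction claudins Cldn7 (0.986) and Cldn3 (0.985). For Muc3 they were Cldn3 (0.994), the intestinal transcription factor Cdx1 (0.993) and the adhesion molecule Ceacam1 (0.987). For Retnlb they were Ceacam1 (0.990), Cdx1 (0.978) and Muc3 (0.978). The step from corpus to intestine enters all these correlations, and none was computed without the corpus libraries. Ceacam1 was also lower in the germ-free jejunum, at 1757, 1801 and 1946 against 3678, 4416 and 3890 in the conventional jejunum, without overlap, as for Retnlb. Of all probe sets, 8.59% were lower in this way. Ceacam1 was picked for its likeness to Retnlb over libraries that include these, so it is no independent support.

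Other mucus and goblet cell genes were followed as a list of 22, of which 16 were on the array and 15 were tested with 20 probe sets. In the descending colon against the corpus of conventional mice 12 probe sets were higher and 4 lower (median log2 difference 2.22, against -0.01 over all probe sets, of which 12.9% were called). Among them Fcgbp was 6.34 higher (limma adjusted p = 0.000112), the transmembrane mucin Muc13 5.45 higher (adjusted p = 0.000138) and Clca1, a secreted goblet cell protease, 5.85 higher (adjusted p = 0.000779). The 2 probe sets of Clca1 disagreed, since the other did not pass (1.02, adjusted p = 0.207). In the germ-free jejunum against corpus 8 were higher and 3 lower, beside 21.8% of all probe sets called. Between descending colon and jejunum of germ-free mice 2 were higher and 1 lower, a share near the 11.8% called over the array. Dmbt1, a scavenger-receptor protein of mucosal secretions, rose by 2.17 (adjusted p = 0.018), Wfdc2 by 5.52 (adjusted p = 0.016), and Guca2b, which encodes uroguanylin, fell by 3.81 (adjusted p = 0.00943).

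No probe set of that list passed between germ-free and conventional mice in any of the 4 regions with all libraries. With the 21 libraries 3 passed in the jejunum, beside 0.565% of probe sets. The trefoil peptide Tff2 was 5.80 higher in germ-free mice (limma adjusted p = 0.00722), while Dmbt1 was 1.88 lower (adjusted p = 0.00528) and a probe set of Muc13 1.06 lower (adjusted p = 0.00441). Dmbt1 read 5268, 3434 and 4491 in the conventional jejunum and 1376, 1169 and 956 in the germ-free jejunum. Its descending colon signals were 3213, 3897 and 4306 in conventional and 6564, 4413 and 4795 in germ-free mice. Dmbt1 thus had the same arrangement as Retnlb in both regions, without overlap. Of all probe sets, 8.59% were lower in this way in the jejunum and 8.4% higher in the descending colon. Dmbt1 was named for its low p in the jejunum, so its jejunum values are a description.

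The 14 tested transcription factors and signals of goblet and secretory cells, 1 probe set each, included 4 that were higher in the conventional descending colon than in the corpus and none lower (median 0.97), beside 12.9% called over the array. They were Cdx1 (5.11, limma adjusted p = 0.000164), Hnf4a (2.76), Elf3 (1.02) and Creb3l1 (1.23). Between descending colon and jejunum of germ-free mice the forkhead factors Foxa1 (1.81, adjusted p = 0.00557) and Foxa2 (3.07, adjusted p = 0.0169) and the goblet differentiation factor Klf4 (0.70, adjusted p = 0.0177) were higher in the colon, beside 11.8% called over the array. In the germ-free jejunum against corpus 3 of the factors were higher and 3 lower, beside 21.8%. Of 34 probe sets for mucin glycosylation, folding and granule release, 6 were higher in the conventional descending colon than in the corpus, among them the sialyltransferases St6galnac4 (2.61) and St3gal6 (3.07), and none was lower. That share is near the 12.9% called over the array. In the germ-free jejunum against corpus none of the 34 was higher and 2 were lower, beside 21.8%. Between descending colon and jejunum of germ-free mice 2 were higher and none lower, beside 11.8%. In no region did a factor or a glycosylation gene pass between the states with all libraries. Averaged over the regions, the probe set of lowest p for the disulfide isomerase Pdia6 fell by 0.42 in germ-free mice (limma adjusted p = 0.0448). Of 3 relatives of the members on the array (Retn, Tff1 and Tff2), 2 were lower in the conventional descending colon than in the corpus and none was higher.

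**Figure D4:**
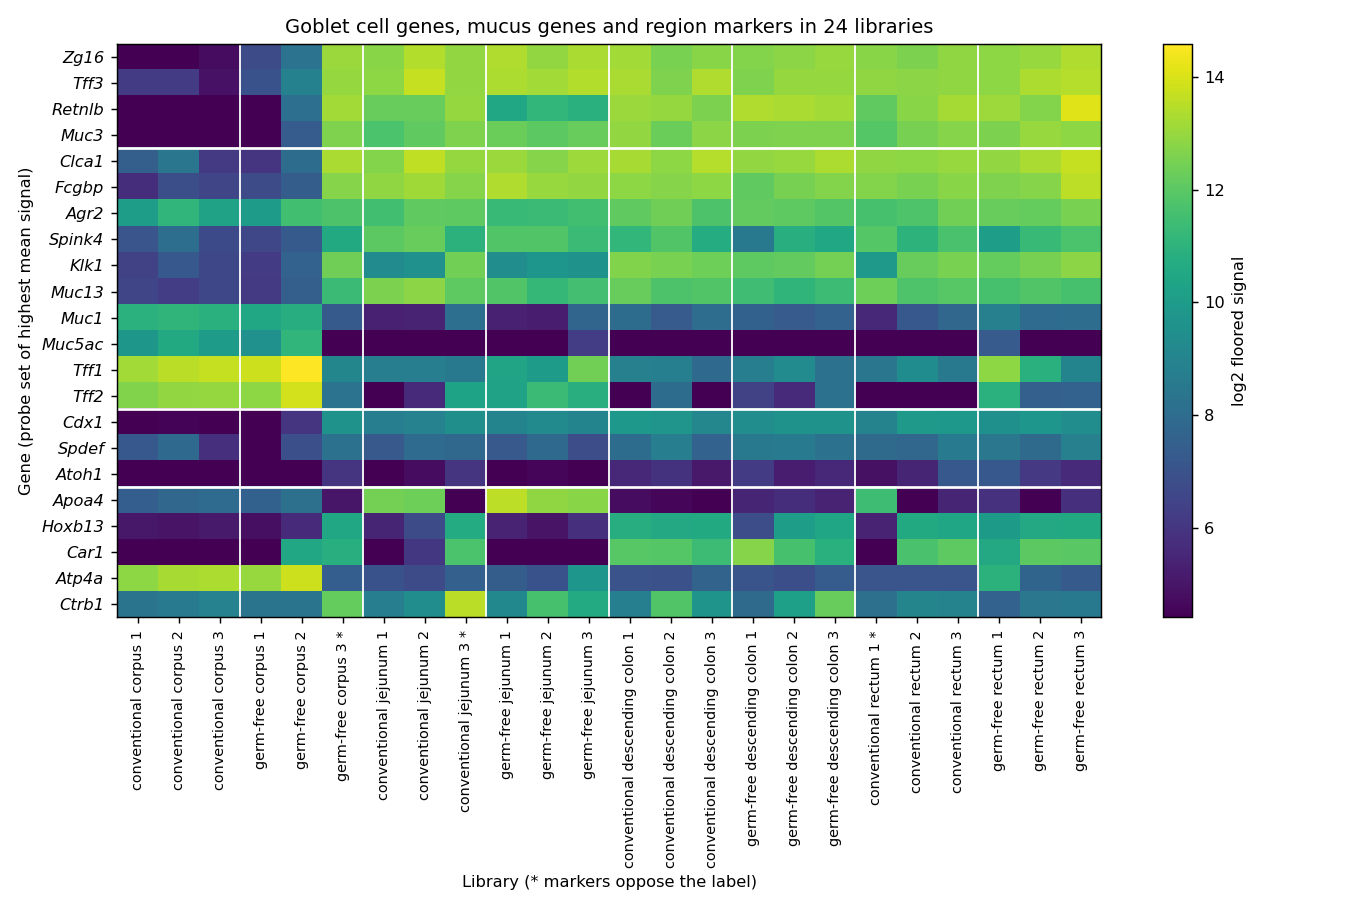
Floored log2 signal (colour) of the 4 genes, other mucus genes, lineage factors and region markers (vertical) in the 24 libraries (horizontal, by group); asterisks mark libraries whose markers opposed their label, and each gene is shown by its probe set of highest mean. Zg16, Tff3, Retnlb and Muc3 are lower in the 5 corpus libraries rich in Atp4a, a gastric proton pump subunit, than in the other 19 libraries.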

How the data were processed

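The values are signal intensities on a linear scale, 1 per probe set and array, as the authors deposited them. The signal algorithm and scaling are not given in the sources used here; the mean of each array's values without its extremes (96% kept) was 200.1 on every array, as values scaled to one level would give. Names came from the array's platform annotation, in which 10855 probe sets had 1 gene, 396 several and 1237 none. The 66 control probe sets were left out, values under the 25th percentile (21.2) were raised to it, and the 9033 probe sets that exceeded the 40th percentile (51.5) on 3 or more arrays were tested. Differences are therefore of floored log2 values, which understates changes of low genes.

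One limma 3.58.1 fit (R 4.3.3) of 8 group means, with an intensity trend, gave all tests, two-sided, with Benjamini-Hochberg adjustment over all 9033 probe sets and a threshold of 0.05. The script was tested on simulated data. The members and lists were chosen with earlier results of these data known. All member probe sets are reported, the 3 best correlated genes of each, and of each list counts and some genes of lowest p. The fit in 21 libraries, the contrast of jejunum and descending colon effects, and the levels relative to Zg16 and Tff3 were added after the values had been seen. Sequencing depth does not apply to arrays, and no detection calls were used. The number of arrays limits the precision.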

Additional observations from a re-analysis of the deposited data

Results flagged for a closer look

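Retnlb was set apart because its germ-free effect went opposite ways in the jejunum and the descending colon, with no overlap between the states in either region. The log2 difference was -1.63 in the jejunum and 0.43 in the descending colon. The difference between these effects was tested after the values had been seen and did not pass (-2.06 ± 1.66, limma adjusted p = 0.813).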

How the results depend on the processing

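The alternatives were quantile normalization, equal array medians, other floors and filters, no intensity trend, a fit of the compared groups alone, a replicate block, leaving out each library, and the 21 libraries (added after the values had been seen). Of the values of single genes, 522 kept direction and side of the threshold and 30 did not, and of the counts of called genes 128 stayed within 1.5 times and 10 did not, not counting fits that left out 1 library. In the corpus, germ-free against conventional mice gave 1 call in place of 0 with a floor at the 10th percentile, with no intensity trend and in the 21 libraries. In germ-free mice, descending colon against corpus gave 4 calls in the 21 libraries, jejunum against corpus gave 0 and descending colon against jejunum 1 with the compared groups alone, and the latter 1 in the 21 libraries. The mean over the regions and the F test each gave 1 there. With 1 library left out, descending colon against corpus in germ-free mice gave 0 to 4 calls, the corpus comparison of the states 0 to 4, the mean over regions 0 to 3, the F test 0 to 3 and jejunum against corpus in germ-free mice 2 to 4.

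Same-numbered libraries of different regions correlated over 0.1 in 16 of 36 pairs. The highest values, 0.666 and 0.615, were jejunum with rectum in conventional mice, each with a library that opposed its label. Number 3 of germ-free mice gave 0.16 to 0.455 over all pairs of regions. The labels state no pairing, so the numbers were not taken to pair samples. Whether same-numbered libraries share a mouse or a batch is not known. With state and number as a replicate block, descending colon against corpus in germ-free mice gave 4 calls, beside 234 probe sets in all, and no other count of the 4 genes moved by over 1.5 times.

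Signs turned only for small differences that passed no test. Under quantile normalization, descending colon minus jejunum became 0.029 for Zg16 and 0.15 for Tff3 in conventional mice and 0.0038 for Zg16 in germ-free mice. Rectum minus descending colon became 0.030 for Zg16 and 0.014 for Retnlb in conventional mice and -0.24 for Retnlb in germ-free mice. The state difference of Muc3 became -0.071 in the jejunum and 0.081 in the descending colon, and the difference between these effects -0.15. With equal medians, Zg16 in the descending colon became -0.17. In the 21 libraries, rectum minus descending colon of Retnlb in conventional mice became 0.14. The cause was not tested. With 1 library left out, the state difference of Muc3 ran from -0.28 to 0.031 in the descending colon and from -0.18 to 0.29 in the jejunum, and that of Zg16 from -0.13 to 0.17 in the descending colon. The difference between jejunum and descending colon effects ran from -0.093 to 0.38 for Muc3 and from -0.0027 to 0.35 for Zg16. Rectum minus descending colon of Retnlb ran from -0.42 to 0.14 in conventional and from -0.39 to 0.30 in germ-free mice, and that of Zg16 from -0.22 to 0.085 in conventional mice. Descending colon minus jejunum of Tff3 ran from -0.22 to 0.19 in conventional mice.

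With 3 libraries in each group, values at the floor of the corpus give only bounds, and the levels of different probe sets cannot be compared. The neighbouring gene Muc3a was not tested for binding to the Muc3 probe set.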
